A study of Homo sapiens with 6 samples.

Results

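Hemidesmosomes are the junctions that tie the keratin network of a basal epithelial cell to the basement membrane. Their receptor is the integrin made of ITGA6 and ITGB4, which binds laminin outside the cell and the plakin linker proteins DST and PLEC inside it. The 10 genes described here are the 2 subunits of that receptor, the 2 plakins, the tetraspanin CD151, the laminin-binding subunit ITGA3 and the 4 collagen-binding subunits ITGA1, ITGA2, ITGA10 and ITGA11. They were taken by symbol from a table of 24294 loci, where each of the 10 had 1 row, and 9 reached a mean of 1 FPKM, the minimum for testing (FPKM counts fragments per kilobase of transcript, scaled to the mapped fragments of the library). ITGA1 shared its row, and so its value, with PELO, a gene of ribosome rescue whose locus overlaps it. The part that each of these 2 genes took in that value was not tested.

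The libraries came from MCF12A, an immortalized human mammary epithelial line that the labels place under breast cancer. One group of 3 samples (EV) carried an empty vector and the other group of 3 stably over-expressed miR-424, and the cells of both groups were grown for 48 hours. The titles give replicate numbers, but the labels do not say whether the samples of a group are separate lines or separate cultures of 1 line, so a p-value here speaks of the spread among these 6 samples, and that spread may be technical. The sources used here do not name the promoter of the construct.

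In the cell, an alpha and a beta chain pair to form an integrin, and the pairing sets the ligand. ITGB4 is known to pair with ITGA6, and its long cytoplasmic domain binds plectin. ITGA6 can also pair with ITGB1, which is the partner of ITGA1, ITGA2, ITGA3, ITGA10 and ITGA11 as well. CD151 binds ITGA3 and ITGA6 integrins in the plane of the membrane. In mammary gland these receptors hold basal cells to the basement membrane.

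Before the results, 3 facts about the libraries. The host locus of the microRNA (MGC16121/MIR424) read 0.989, 1.27 and 1.23 FPKM in EV replicates 1, 2 and 3 and 107, 106 and 224 FPKM in the miR-424 replicates, so the labels and the construct matched in all 6 libraries. The sum of FPKM per library lay between 409776 and 424564, and the sources used here give no read numbers. miR-424 replicate 3 stood apart from replicates 1 and 2 with a trend on the GC content of transcripts, described further down with the members' values. Against the EV mean, miR-424 replicates 1 and 2 had a GC trend of the opposite direction, with medians given there. Of the mammary epithelial markers KRT8 (150 to 176 FPKM), KRT18 (82.1 to 91.4) and KRT5 (37.5 to 65.3) were plainly detected over the 6 libraries, while CDH1 had means of 0.0228 and 0.0183 FPKM in EV and miR-424 cells, TP63 of 0.133 and 0.172, and KRT19 of 0.119 and 0.0683. Of 7 fibroblast markers DCN (118 to 138 FPKM) and COL1A1 were above the minimum, COL1A1 being higher with miR-424 (values further down), and PDGFRA, COL1A2 and THY1 had means under 0.1 FPKM in both groups. LUM (means of 0.0503 and 0.184 FPKM in EV and miR-424 cells) and PDGFRB (0.184 and 0.217) were higher in every miR-424 library than in any EV library, at levels under the minimum. The fibroblast list summed to between 156 and 166 FPKM in EV and between 164 and 185 in miR-424 libraries, the leukocyte list of 4 genes to between 1.59 and 1.78 and between 1.36 and 1.64, and the endothelial list of 5 genes to at most 0.341. Their part in the results below was not tested.

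The sequence that the design adds to the cell is shown first, because it sets what can be looked for in the members' transcripts. The mature microRNA, from RefSeq (GRCh38.p14, chromosome X, 134546680 to 134546701, minus strand), is given with miR-16-5p, which shares its seed. Capitals mark the seed, bases 2 to 8 from the 5′ end.
hsa-miR-424-5p: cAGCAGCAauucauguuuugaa
hsa-miR-16-5p: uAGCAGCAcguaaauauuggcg

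The reverse complement of this seed, TGCTGCT, was searched on the sense strand of the longest 3′ UTR of each member among GENCODE 29 transcripts matched to the RefSeq accessions of its row. It was present in 4 of the 10 members, ITGA1, ITGA2, ITGA10 and CD151, with 2 matches in each. In CD151 the 2 matches overlap. The 4 sites below stand for these members, each as 30 bases 5′ to 3′ with the match in capitals, and none of the 8 matches is followed by an A.
ITGA1, chromosome 5, 52956986 to 52956992, plus strand: aaaaggctaaaTGCTGCTgtttctaagtgg
ITGA2, chromosome 5, 53091111 to 53091117, plus strand: ttttcaatttaTGCTGCTcatccaaagttg
ITGA10, chromosome 1, 145892640 to 145892646, minus strand: agtcctagggaTGCTGCTggctagagatga
CD151, chromosome 11, 838208 to 838214, plus strand: gccttgggcctTGCTGCTgctgcacccaac

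These site coordinates are GRCh38. Of 10482 tested loci with such a UTR, 23.5% held the match. Among UTRs whose length differed by at most 25%, the share was 55.6% for ITGA1 (6759 bases), 45.6% for ITGA2 (4180 bases), 23.2% for ITGA10 (1590 bases) and 11.6% for CD151 (643 bases). The 3′ UTRs of ITGB4 (263 bases), ITGA6 (2162), ITGA3 (1402), DST (1018), PLEC (1030) and ITGA11 (292) held no match, which says only that these letters are not in these sequences.

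The members spanned a wide range of levels. FPKM is scaled to length, so levels are set side by side here as a description. The part of GC content in their order was not tested. By the mean over the 6 libraries the order was ITGA3 (298 FPKM), CD151 (163), PLEC (81.9), ITGA6 (36.0), DST (20.4), the ITGA1/PELO locus (17.8), ITGB4 (12.7), ITGA2 (5.34), ITGA10 (1.17) and ITGA11 (0.357). Neighbours in this order did not overlap in any library of the same group, with 1 exception. DST and the ITGA1/PELO locus overlapped among the miR-424 libraries. ITGA3 ranked 187 and CD151 376 of the 24294 loci by level, so the laminin-binding chain and its tetraspanin were among the most abundant transcripts. ITGB1, the shared beta chain, read 324 ± 5.85 FPKM in EV cells against 345 ± 32.2 FPKM with miR-424 (SD, n = 3 each). ITGB4, the beta chain of the hemidesmosome, was therefore the scarcer of the beta chains that ITGA6 can pair with.

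**Figure D1:**
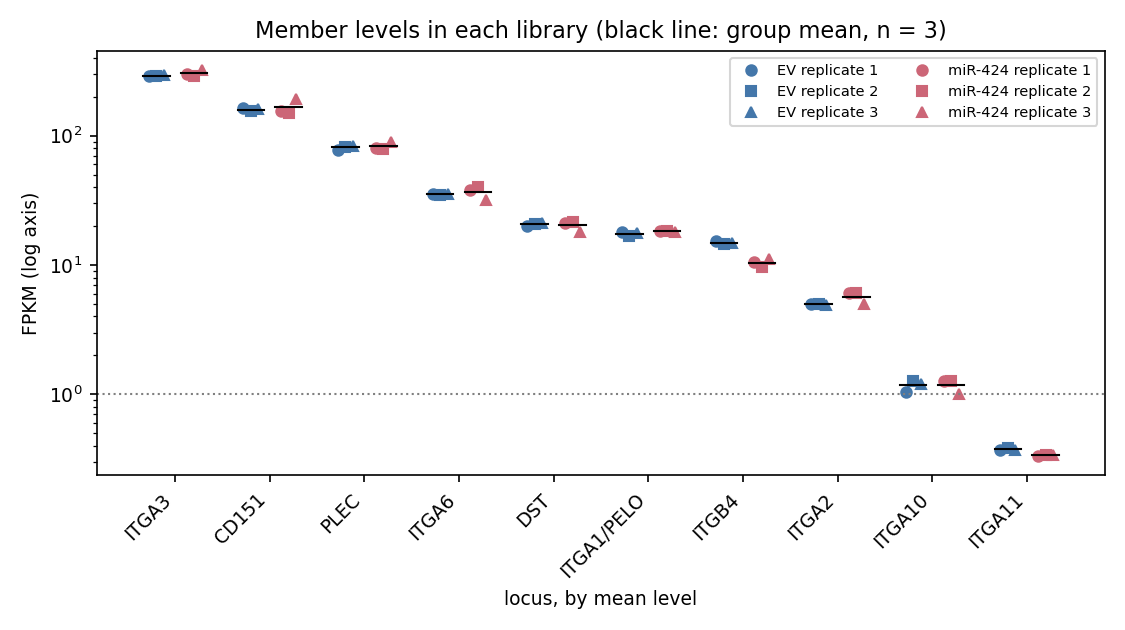
FPKM of the 10 members in each of the 6 libraries, on a log axis, with EV in blue and miR-424 in red, marker shape for the replicate and a black line at the group mean. The dotted line is the minimum of 1 FPKM for testing. ITGB4 is the tested member whose groups do not overlap (14.5 to 15.3 against 9.67 to 11.0 FPKM).

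The comparison asked which of these transcripts differ when miR-424 is over-expressed. ITGB4 fell and no other member passed the test. In such bulk samples fewer cells of a type and less RNA per cell cannot be told apart. Of 9 tested members 1 was lower and 0 were higher at an adjusted p under 0.05 from limma with the Benjamini-Hochberg (BH) method over 11574 loci. The counts were also 1 and 0 at an unadjusted p under 0.05 (limma), but the share of all tested loci there was not computed. At the adjusted threshold 7.56% of all tested loci were called, 6.32% lower and 1.24% higher, so 1 of 9 members is near the background. The groups did not overlap for the same 1 of the 9, against 33.5% of all tested loci. The median log2 change over the 9 was 0.05, against -0.05 over all tested loci. All log2 changes are of FPKM + 1, miR-424 minus EV, and understate the change of low loci.

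ITGB4 (chromosome 17, 73717515 to 73753899, hg19) read 15.3, 14.5 and 14.9 FPKM in EV replicates 1, 2 and 3. It read 10.5, 9.67 and 11.0 FPKM in miR-424 replicates 1, 2 and 3. Every miR-424 library lay below every EV library. The ratio of the means was 0.698, and the log2 change was -0.48 ± 0.06 (SE; 95% interval -0.61 to -0.35; limma/BH adjusted p = 0.00655). The fall was of like size with median-of-ratios scaling (-0.43), quantile normalization (-0.43) and the GC trend removed (-0.39). The call was lost when EV replicate 1 was left out (limma/BH adjusted p = 0.0551) and when EV replicate 3 was (0.0512), where the change was -0.46 and -0.48. In these fits 34 and 35 of all tested loci were higher and 77 and 84 lower, against 144 and 731 as deposited. Over 16 alternatives ITGB4 passed in 14, with limma/BH adjusted p between 0.000247 and 0.0551.

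ITGA6 (chromosome 2, 173292313 to 173371181), the alpha chain of the same receptor, did not pass the test. It read 35.5, 35.0 and 35.6 FPKM in EV cells against 38.2, 40.0 and 31.9 FPKM with miR-424. miR-424 replicates 1 and 2 were above all EV libraries and replicate 3 was below them. The log2 change was 0.05, with a 95% interval from -0.15 to 0.24 (limma/BH adjusted p = 0.797). Without miR-424 replicate 3 it was 0.14 and passed (limma/BH adjusted p = 0.00599), and it passed there also with the GC trend removed (0.10, adjusted p = 0.0182).

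The ratio of ITGB4 to ITGA6 within a library does not depend on a common factor per library. It was 0.431, 0.415 and 0.418 in the EV replicates and 0.275, 0.242 and 0.347 in the miR-424 replicates. Each miR-424 library had fewer ITGB4 per ITGA6 transcripts than each EV library, with the smallest gap at replicate 3. The means were 0.421 ± 0.00849 and 0.288 ± 0.0536 (SD, n = 3 each), a difference of -0.57 in log2 ratio. The exact two-sided permutation test of 3 against 3 gave p = 0.1, the smallest it allows. The transcripts of this pair have GC contents of 63.1% and 42.2%, and replicate 3 left its group upward in ITGB4 and downward in ITGA6; the part of GC in the ratio was not tested.

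**Figure D2:**
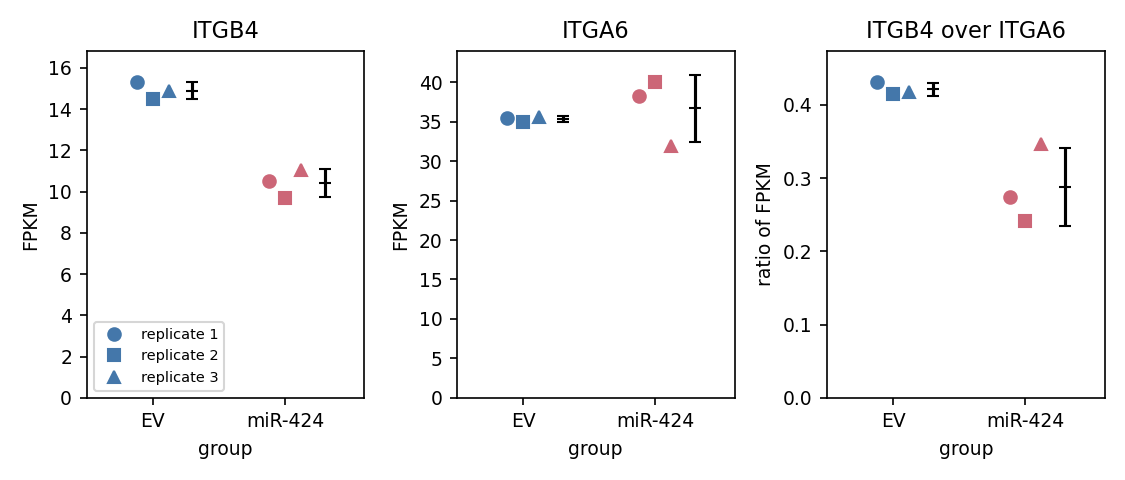
ITGB4 (FPKM), ITGA6 (FPKM) and the ratio of ITGB4 to ITGA6 in each library, by group, with marker shape for the replicate and the mean ± SD (n = 3) in black. The ratio is between 0.415 and 0.431 in EV and between 0.242 and 0.347 in miR-424 libraries.

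The plakins that carry the receptor's link to keratin did not pass the test. DST (chromosome 6, 56137688 to 56615138), whose epithelial form is the hemidesmosomal plakin BPAG1e, read 20.2, 20.8 and 21.0 FPKM in EV cells. It read 21.1, 21.6 and 17.9 FPKM in miR-424 cells, with replicate 3 the lowest of the 6 libraries. Its log2 change was -0.03 (95% interval -0.21 to 0.14; limma/BH adjusted p = 0.831), and the sign turned with median-of-ratios scaling (0.02), with quantile normalization (0.01) and without replicate 3 (0.05). The table does not separate the epithelial form of DST from its other isoforms.

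PLEC (chromosome 8, 144989320 to 145050913), which encodes plectin, read 77.9, 82.0 and 83.6 FPKM in EV cells against 79.9, 78.9 and 89.1 FPKM with miR-424. Here replicate 3 was the highest library. The log2 change was 0.02 (95% interval -0.11 to 0.16; limma/BH adjusted p = 0.859). PLEC had about 4 FPKM for each FPKM of DST in both groups (81.2 against 20.7 in EV and 82.6 against 20.2 in miR-424 cells).

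CD151 (chromosome 11, 832951 to 838835) read 164, 154 and 160 FPKM in EV cells against 156, 150 and 192 FPKM with miR-424. miR-424 replicate 3 was above all other libraries, and replicate 2 was the lowest. The log2 change was 0.05, with a wide 95% interval from -0.17 to 0.27 (limma/BH adjusted p = 0.797), and -0.06 without replicate 3.

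ITGA3 (chromosome 17, 48133339 to 48167849), the alpha chain of a laminin receptor that works outside hemidesmosomes, read 288, 291 and 295 FPKM in EV cells. It read 300, 291 and 322 FPKM in miR-424 cells, so the groups overlapped by replicate 2. The log2 change was 0.06 (95% interval -0.04 to 0.17; limma/BH adjusted p = 0.463). With the GC trend removed it was 0.15 and passed (limma/BH adjusted p = 0.0466), but it did not with the replicate block in the same fit (0.0840).

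Among the collagen-binding subunits ITGA2 had the largest change. ITGA2 (chromosome 5, 52285155 to 52390609), which forms a receptor for fibrillar collagen, read 5.03, 5.00 and 4.89 FPKM in EV cells against 6.04, 6.05 and 5.02 FPKM with miR-424. Replicates 1 and 2 were above the EV libraries and replicate 3 was level with them. The log2 change of 0.16 (95% interval -0.0045 to 0.33) did not pass as deposited (limma/BH adjusted p = 0.223). It passed in 5 of 16 alternatives, at 0.19 with the GC trend removed (limma/BH adjusted p = 0.0103), 0.22 with quantile normalization (0.0338) and 0.24 without replicate 3 (0.00208) among them.

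The ITGA1/PELO locus (chromosome 5, 52083773 to 52249485), which lies beside ITGA2, read 18.1, 16.7 and 17.5 FPKM in EV cells against 18.4, 18.2 and 18.0 FPKM with miR-424. The groups overlapped at EV replicate 1, and the log2 change was 0.06 (95% interval -0.05 to 0.16; limma/BH adjusted p = 0.498). ITGA10 (chromosome 1, 145524989 to 145543868), a subunit best known from cartilage, read 1.04, 1.28 and 1.20 FPKM in EV cells against 1.28, 1.26 and 0.998 FPKM with miR-424. Its log2 change was 0.00 (95% interval -0.17 to 0.17). ITGA11 (chromosome 15, 68594041 to 68724492), a subunit of fibroblasts, was under the minimum for testing at 0.369, 0.387 and 0.373 FPKM in EV cells against 0.333, 0.339 and 0.342 FPKM with miR-424. Those groups do not overlap, but the level is low and the depth behind it is unknown. When all loci above 0 were tested it did not pass (limma/BH adjusted p = 0.213).

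The direction in which miR-424 replicate 3 left its group followed the GC content of the members' transcripts. On the log2 scale it was below the mean of replicates 1 and 2 by 0.23 in ITGA2 (40.2% GC), 0.24 in DST (41.1%) and 0.29 in ITGA6 (42.2%). It was above that mean by 0.12 in ITGA3 (60.9%), 0.33 in CD151 (61.5%), 0.12 in ITGB4 (63.1%) and 0.17 in PLEC (66.8%). The distance was -0.02 in ITGA1/PELO (42.0%), -0.18 in ITGA10 (53.2%) and 0.01 in ITGA11 (57.5%). Across the 10 members the Spearman correlation of this distance with GC was 0.83, and across 11407 tested loci with a GC value it was 0.62; the loci share 3 libraries, so these are descriptions. Against the EV mean, loci over 60% GC had medians of -0.09, -0.12 and -0.05 in miR-424 replicates 1, 2 and 3, and loci under 45% GC had 0.05, 0.06 and -0.18. ITGB4, of the class over 60% GC, lay below the EV libraries in miR-424 replicates 1, 2 and 3. The medians of that class were also below the EV mean in each. Beyond the fits with the GC trend removed, the part of GC in the ITGB4 values was not tested.

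**Figure D3:**
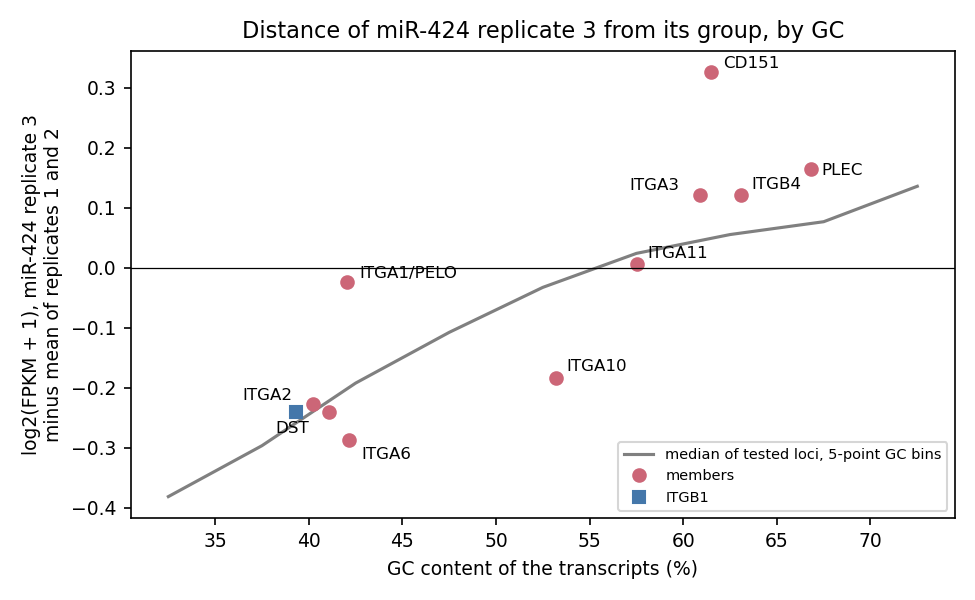
Distance of miR-424 replicate 3 from the mean of replicates 1 and 2, in log2(FPKM + 1), against transcript GC content, for the 10 members (red), ITGB1 (blue) and the median of tested loci in bins of 5 percentage points (grey line). Members at 40% to 42% GC lie between -0.29 and -0.02 and those over 60% between 0.12 and 0.33.

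Removing the GC trend from each library, and leaving out replicate 3, changed which of the other members passed. With the trend removed 2 members rose (ITGA2 and ITGA3) and 1 fell, where 6.04% of loci were higher and 7.51% lower (13.6% in all). Without replicate 3, 2 rose (ITGA2 and ITGA6) and 1 fell, where 14.9% and 22.2% of loci were called (37.2% in all). With both together 3 rose (ITGA2, ITGA3 and ITGA6) and 1 fell, where 14.6% and 15.3% were called (29.9% in all). Quantile normalization gave 1 rise (ITGA2) and 1 fall among the members, with 2.76% of loci higher and 3.86% lower (6.62% in all). Median-of-ratios scaling gave 0 and 1, with 2.66% and 4.28% (6.94% in all). The fall was ITGB4 in these 5 settings, by 0.39, 0.52, 0.41, 0.43 and 0.43 on the log2 scale in the order given. The scaling also set the balance over all loci: 16.5% of called loci were higher as deposited, 38.4% with median-of-ratios scaling, 41.6% with quantile normalization and 44.6% with the GC trend removed.

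**Figure D4:**
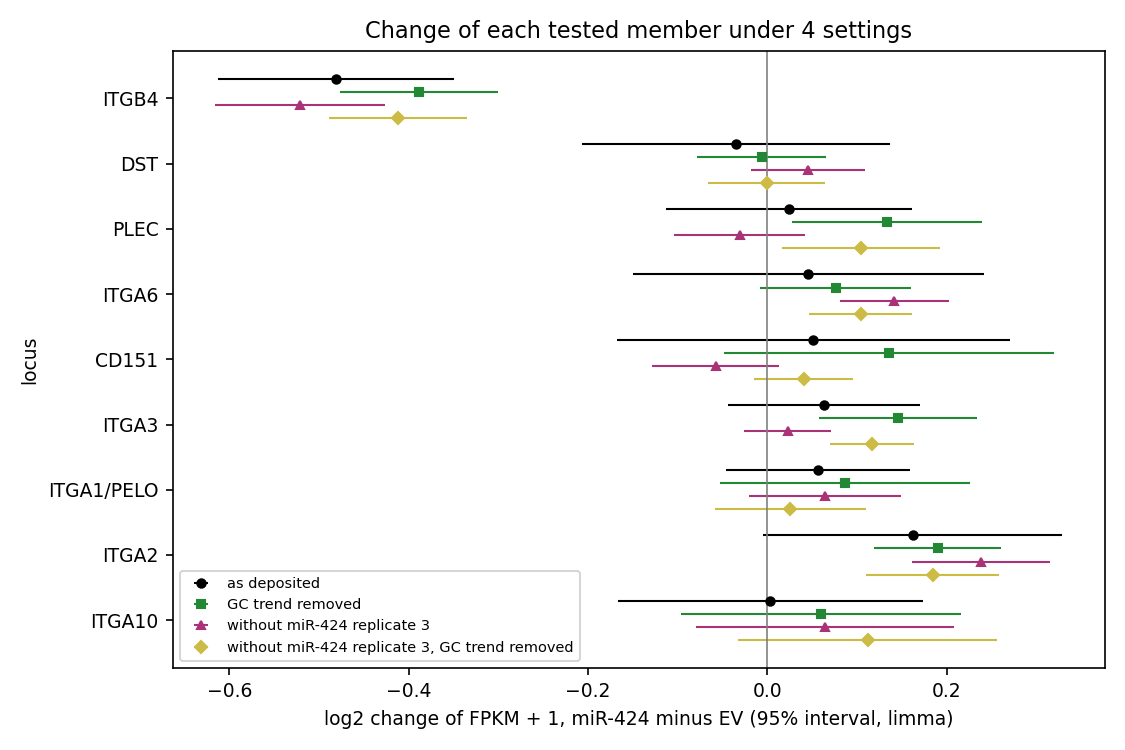
Log2 change (miR-424 minus EV, of FPKM + 1) of the 9 tested members with 95% intervals from limma, for values as deposited, with the GC trend removed, without miR-424 replicate 3, and with both. The interval of ITGB4 lies below 0 in each setting (-0.61 to -0.35 as deposited), and that of ITGA2 includes 0 as deposited (-0.0045 to 0.33) and lies above 0 in the other 3.

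The genes that these receptors work with were taken from lists of their ligands, partners and effectors. Of all tested loci 1.24% were higher and 6.32% lower as deposited, which is the background for the as-deposited counts of each list below. Without 1 EV library, 31 to 35 of 11574 loci were higher and 77 to 84 lower. Without miR-424 replicate 1 they were 63 and 280, and without miR-424 replicate 2 they were 83 and 365. Among the other hemidesmosome genes, KRT5 and KRT14, the keratin pair of basal cells, moved in opposite directions. KRT5 read 65.3, 61.1 and 64.6 FPKM in EV cells against 40.8, 37.5 and 43.9 FPKM with miR-424, a log2 change of -0.63 ± 0.06 (SE; limma/BH adjusted p = 0.00415). KRT14, at a far lower level, read 2.31, 1.99 and 2.46 FPKM and 4.39, 3.55 and 5.14 FPKM, a change of 0.71 ± 0.11 (limma/BH adjusted p = 0.0165). The KRT14 call ended without EV replicate 1, 2 or 3 (limma/BH adjusted p = 0.0858, 0.0879 and 0.0716) and without miR-424 replicate 1 (0.0632). ERBB2IP, which binds ITGB4 and is also called ERBIN, had a change of 0.04 (95% interval -0.25 to 0.34) and passed without miR-424 replicate 3 (0.19, limma/BH adjusted p = 0.00467). COL17A1, the transmembrane collagen of hemidesmosomes, was under the minimum, at 0.485 ± 0.143 FPKM in EV cells against 0.481 ± 0.0847 FPKM with miR-424 (SD, n = 3).

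The laminin chains are ligands of the ITGA3 and ITGA6 integrins. Of 7 tested chains 2 rose, 1 fell and 4 were not called, with a median log2 change of 0.01. Those not called were LAMA3 (means of 4.79 and 4.52 FPKM in EV and miR-424 cells), LAMB3 (3.67 and 3.87), LAMB1 and LAMB2. They were named after their values were seen. LAMA4 went from 7.50 ± 0.0184 to 12.9 ± 0.140 FPKM, LAMC1 from 106 ± 1.31 to 119 ± 2.13 FPKM and LAMA5 from 6.96 ± 0.246 to 4.34 ± 0.324 FPKM (SD, n = 3). LAMA4 rose by 0.71 and LAMC1 by 0.16 on the log2 scale, and LAMA5, in the locus LAMA5/MIR4758, fell by 0.58. The 3 called chains had limma/BH adjusted p from 0.000862 to 0.0346. The call of LAMC1 ended without any 1 of EV replicates 1 to 3 or miR-424 replicates 1 and 2 (limma/BH adjusted p = 0.101 to 0.175), and 1 rise was then left. Without miR-424 replicate 3 there were 2 rises and 2 falls, where 14.9% of all tested loci were higher and 22.2% lower.

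Collagen chains rose in 3 cases and fell in 1 among 9 tested, with a median log2 change of 0.06. COL4A1, of the basement membrane collagen that the ITGA1 integrin binds, went from 38.0 ± 1.45 to 52.4 ± 6.42 FPKM, COL1A1 from 39.0 ± 1.49 to 45.2 ± 1.66 FPKM and COL6A3 from 0.864 ± 0.0643 to 1.35 ± 0.0511 FPKM (SD, n = 3). COL7A1, of the anchoring fibrils under hemidesmosomes, fell from 16.8 ± 0.647 to 12.8 ± 1.31 FPKM in the locus COL7A1/MIR711. COL1A2, the usual partner chain of COL1A1 in collagen I, had means of 0.0148 and 0.00831 FPKM and was named after its values were seen. The 4 called chains had limma/BH adjusted p from 0.0112 to 0.0456. Leaving out any EV library gave 0 rises and 0 falls, where 31 to 35 of 11574 loci were higher and 77 to 84 lower. Leaving out miR-424 replicate 1 or 2 gave 1 rise and 0 falls, where 63 or 83 loci were higher and 280 or 365 lower. Without miR-424 replicate 3 there were 5 and 1, where 14.9% of all tested loci were higher and 22.2% lower. With the GC trend removed there were 5 rises and 0 falls (6.04% and 7.51% over all tested loci), and COL7A1 did not pass (limma/BH adjusted p = 0.0590). With all loci above 0 tested, COL4A1 (limma/BH adjusted p = 0.0549), COL1A1 (0.0545) and COL7A1 (0.0564) did not pass, which left 1 rise and 0 falls. COL1A1 did not pass with a constant prior variance either (limma/BH adjusted p = 0.0521).

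Among 9 tested subunits of other integrins 2 beta chains rose and 0 fell. At an unadjusted p under 0.05 (limma) 4 were higher and 0 lower, but the share of all tested loci there was not computed. ITGB3 went from 2.13 ± 0.0881 to 3.27 ± 0.165 FPKM (limma/BH adjusted p = 0.00594) and ITGB8 from 7.69 ± 0.274 to 11.6 ± 1.71 FPKM (0.0279; SD, n = 3). ITGB1 did not pass, with a log2 change of 0.08 (95% interval -0.08 to 0.25; limma/BH adjusted p = 0.538) and 0.16 without replicate 3 (adjusted p = 0.00139). Left-out EV replicates 1, 2 and 3 gave 1, 0 and 1 rises, and either of miR-424 replicates 1 and 2 gave 1. Without miR-424 replicate 3 there were 6 rises and 1 fall, where 14.9% of all tested loci were higher and 22.2% lower. ITGB3 was not called without EV replicate 2 (limma/BH adjusted p = 0.0510), and ITGB8 was called without miR-424 replicate 3 but not without any 1 of the other 5 (0.0762 to 0.133), nor when all loci were tested (0.0508).

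Of other tetraspanins, other plakins and matrix receptors that are not integrins, 2 loci each were called lower as deposited, and of all called loci 16.5% were higher. CD9, a tetraspanin that joins integrins as CD151 does, read 42.8, 42.7 and 46.1 FPKM in EV cells against 28.5, 29.3 and 29.7 FPKM with miR-424 (log2 change -0.57 ± 0.04, SE; limma/BH adjusted p = 0.00211). CD82 fell by 0.38, and 2 of 4 tested tetraspanins fell in all; the CD82 call ended with median-of-ratios scaling (limma/BH adjusted p = 0.0904) or quantile normalization (0.0570), and in 5 of the 6 fits with 1 library left out (0.0661 to 0.118), all but that lacking miR-424 replicate 3. Of 3 tested relatives of DST and PLEC, the desmosomal plakins PPL and DSP fell, by 0.46 and 0.44, while MACF1 (7.27 and 7.44 FPKM), named after its values were seen, was not called. The DSP call ended without EV replicate 1, 2 or 3 or miR-424 replicate 1 (limma/BH adjusted p = 0.0634 to 0.126). Of 6 tested matrix receptors that are not integrins, the heparan sulfate proteoglycan SDC1 fell from 73.9 ± 0.929 to 53.4 ± 0.750 FPKM and the collagen receptor kinase DDR1 from 12.4 ± 0.310 to 9.35 ± 0.340 FPKM (SD, n = 3). The DDR1 call ended without EV replicate 1, 2 or 3 (limma/BH adjusted p = 0.0581, 0.0531 and 0.0556). Without miR-424 replicate 3 the falls among tetraspanins, plakins and these receptors were 4, 2 and 5, with 1 rise among the receptors. In that setting 22.2% of all tested loci were lower and 14.9% higher.

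Proteins that couple integrins to actin, or signal from them, were mostly not called. Over all tested loci 7.56% were called, 6.32% lower and 1.24% higher, and the share here was near that. Of 22 tested talins, kindlins, tensins, kinases and other adaptors 3 fell and 1 rose at an unadjusted p under 0.05 (limma). The share of all tested loci at that threshold was not computed. At the adjusted threshold 1 fell and 0 rose, and the median log2 change of the 22 was 0.00. The fall was PTK2B, a relative of focal adhesion kinase, from 3.50 ± 0.136 to 2.43 ± 0.193 FPKM (SD, n = 3; limma/BH adjusted p = 0.0120), and it ended without EV replicate 1, 2 or 3 (0.0608, 0.0742 and 0.0762). Without miR-424 replicate 3, 5 adaptors rose and 3 fell, where 14.9% of all tested loci were higher and 22.2% lower. With the GC trend removed 4 rose and 1 fell, where 6.04% were higher and 7.51% lower.

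**Figure D5:**
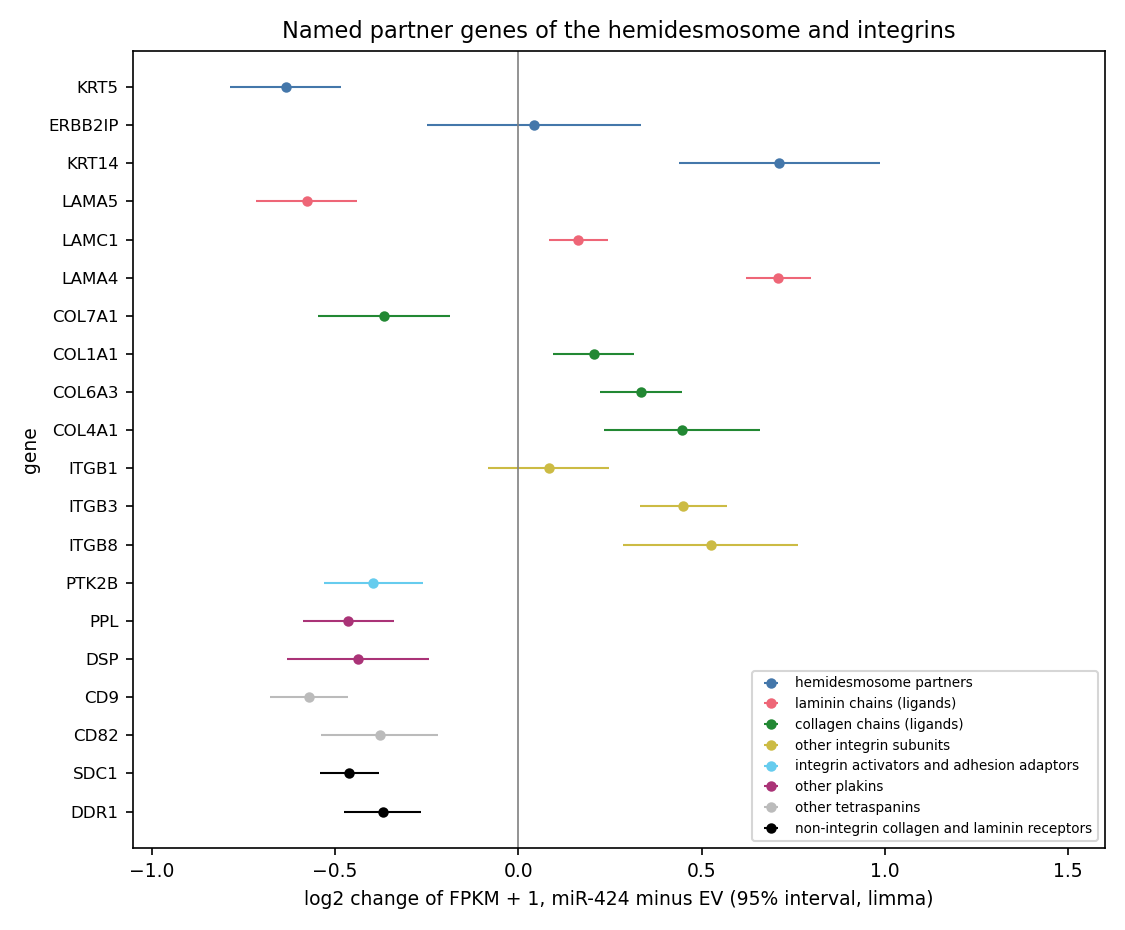
Log2 change (miR-424 minus EV, of FPKM + 1) with 95% intervals from limma for the named partner genes, coloured by list. KRT5 (-0.63), LAMA5 (-0.58) and CD9 (-0.57) are lowest, and KRT14 (0.71) and LAMA4 (0.71) are highest; the intervals of ERBB2IP and ITGB1 cross 0.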

How the data were processed

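The authors deposited 1 table of FPKM values with 1 column per sample. The submitters' processing notes list TopHat 1.4.1, Cufflinks 1.3.0 and Cuffdiff, with hg19 and GRCh37 as builds, but no order of steps. The sources used here do not state the annotation, the read numbers, the use of strand or a scaling across samples. Depth is therefore unknown, and no counting interval is given. Columns were matched to samples by title. Values were taken as log2(FPKM + 1), and loci averaging 1 FPKM or more (11574) entered a limma 3.58.1 fit under R 4.3.3 (trended prior variance, no covariate, two-sided, Benjamini-Hochberg adjustment over all tested loci, threshold 0.05). The function was tested on simulated data with independent noise. Those data had no GC trend and no outlying library, so that test does not bear on these features. The ratio of ITGB4 to ITGA6 was tested by exact permutation.

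Transcript GC content and 3′ UTRs came from GENCODE 29 (GRCh38), matched by RefSeq accession or symbol, never by coordinate; 98.6% of tested loci had a GC value. The GC trend was removed per library by a loess fit with a span of 0.5 on loci that had one. Locus coordinates are hg19, as in the table. Alternatives were another pseudocount, other minimum levels, 2 scalings, a constant prior variance, the replicate block, GC removal and leaving out each library. Named partners are, per list, the called genes of lowest adjusted p, at most 4, plus every hemidesmosome partner and ITGB1. The members, lists and tests were chosen with earlier results of these data known. Of the lists 2 genes are not reported here and were left out of the list counts and sums.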

Additional observations from a re-analysis of the deposited data

How the results depend on the processing

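Over all loci, 144 were higher and 731 lower as deposited. The higher loci were 308 with median-of-ratios scaling, 319 with quantile normalization, 689 with the GC trend removed and 372 with the replicate block and the GC trend removed. The lower loci were 468 at a minimum mean of 5 FPKM, where only 8305 loci were tested, and 447 of 11574 with quantile normalization. With the replicate block 79 were higher and 270 lower; the block alone changed no member's call; with the GC trend removed it ended that of ITGA3 (limma, Benjamini-Hochberg adjusted p = 0.0840). With the block alone LAMC1 (limma, Benjamini-Hochberg adjusted p = 0.116), COL7A1 (0.0671), COL1A1 (0.0778) and ITGB8 (0.0574) among the named partners lost theirs. Deviations of samples of the same number had correlations of 0.05, 0.15 and 0.13. Those of unlike number had between -0.19 and 0.06, the highest for EV replicate 1 with miR-424 replicate 2. The main fit has no block because the labels state no pairing. Whether the numbers are pairs is not settled by these values. Leaving out 1 library gave 31 to 1728 higher and 77 to 2574 lower loci, the largest counts without miR-424 replicate 3 (with the GC trend also removed, 1663 and 1748).

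Members called higher were 0 as deposited, 1 with quantile normalization, 2 with the GC trend removed, 1 with the replicate block and the GC trend removed, 0 to 2 with 1 library left out and 3 without miR-424 replicate 3 with the GC trend removed. Members called lower were 0 to 1 with 1 library left out. The sign of the DST change turned with median-of-ratios scaling (0.019) and quantile normalization (0.0075). With 1 library left out, the changes of members and partners whose sign turned ranged from -0.083 to 0.045 for DST, -0.018 to 0.14 for ITGA6, -0.042 to 0.064 for ITGA10, -0.031 to 0.056 for PLEC, -0.058 to 0.12 for CD151 and -0.050 to 0.19 for ERBB2IP. The log2 ratio of ITGB4 to ITGA6 differed by -0.71 to -0.45 with 1 library left out, by -0.53 with 1 FPKM added and by -0.57 over the 3 same-numbered pairs (exact permutation p = 0.25, the smallest it allows). Of the alternative values of single genes, 387 kept direction and side of the threshold, 63 lost it, 13 gained it and 12 turned sign.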
